A study of Mus musculus with 24 samples.

Results

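The regions described here were 4502 distal ATAC-seq peaks called in common myeloid progenitors (CMPs) of Daxx-WT mice and in neither of the other Daxx-WT populations of the same experiment, long-term haematopoietic stem cells (LT-HSCs) and granulocyte-monocyte progenitors (GMPs). A peak of the Daxx-WT CMP list was taken when it lay more than 1 kb from every annotated start site and shared not 1 base with an interval of the Daxx-WT LT-HSC or GMP list. These were 6.81% of the 66070 peaks of the Daxx-WT CMP list and 9.78% of its 46017 distal peaks. The regions were thus selected on measured values, the peak calls of these 3 lists, so their absence from the Daxx-WT LT-HSC and GMP lists is their definition and not a finding. They are called CMP-only distal peaks below, and the remaining 41515 distal Daxx-WT CMP peaks are called other distal peaks. Of the other distal peaks, 23633 overlapped both Daxx-WT LT-HSC and GMP peaks, 11301 GMP peaks alone and 6581 LT-HSC peaks alone.

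ATAC-seq reads open chromatin from the places where a transposase can insert adapters into DNA. Open regions far from promoters are largely enhancers, the elements through which transcription factors set the expression of genes at a distance. CMPs are the myeloid progenitors that still hold the erythroid and megakaryocyte fates as well as the granulocyte and monocyte fates, whereas GMPs are restricted to the latter. GATA1 and GATA2 with TAL1 and LMO2, which together bind an E-box followed by a GATA site, and RUNX1 drive the erythroid, megakaryocyte and mast cell programmes, and Pu.1 and C/EBP factors drive the granulocyte and monocyte programme. Daxx is a chaperone that places the histone variant H3.3 into chromatin.

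The study compared Daxx-WT mice with Daxx-KO mice (C57BL/6, both sexes, usually treated at 5 to 11 weeks of age), and the Daxx F alleles of the latter carried loxP sites around exons 2 to 7. For the LT-HSC, CMP and GMP lists without a time in their label, Daxx F/F and Daxx +/+ mice both carried Rosa26CreERT2, which is active in every tissue once tamoxifen is given, and 2 libraries of each genotype were made 3 weeks after tamoxifen. LT-HSCs at 3 days post induction (3 d.p.i.) came from the same cross after tamoxifen, with 3 Daxx-KO and 2 Daxx-WT libraries. The labels give these controls as Daxx +/+, whereas the study's legend includes a Daxx +/F animal. KLS cells (c-Kit+ Lin- Sca-1+, the compartment that holds stem cells and early progenitors) were taken at 3 weeks from 2 Daxx-WT, 3 Daxx-KO and 2 DKO libraries, where DKO mice lacked Daxx and Pu.1 through the interferon-inducible Mx1Cre after pI:pC. The labels do not give the Cre driver of the Daxx-WT and Daxx-KO KLS cells. CMPs were sorted as lineage-negative, CD45.2-positive cells with c-Kit and CD34 but without Sca-1 or CD16/32, GMPs as their CD16/32-positive counterpart, and LT-HSCs as lineage-negative cells with c-Kit, Sca-1 and CD150 but without CD48. The 3 d.p.i. and KLS libraries were tagmented and sequenced by another protocol than the first 6 groups, so a level cannot be compared across the 2 sets.

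Each of the 11 groups had 1 peak list, so that presence in a list had no spread between libraries. The lists held 22156 (DKO KLS) to 70455 (Daxx-KO LT-HSC) intervals and 549003 in all. A further 3 tables, 1 for LT-HSCs at 3 d.p.i. and 2 for KLS cells, gave scaled reads per library at sites that the authors had listed as differing from Daxx-WT, with 4.21 to 16.0 reads on average in a window of 600 bp. The targeted gene separated the labels in all 3 tables. At the site over Daxx exons in the LT-HSC 3 d.p.i. table the Daxx-KO libraries held 69.7, 109 and 61.2 scaled reads and the Daxx-WT libraries 201 and 366. In KLS cells a site over later Daxx exons held 13.4, 7 and 9.41 scaled reads in Daxx-KO libraries against 88.5 and 53.9 in Daxx-WT libraries, and 6.36 and 8.43 in DKO libraries against 79.9 and 45. The last exon of Spi1, which encodes Pu.1, held 2.12 and 4.68 in DKO against 31.1 and 58.1 in Daxx-WT libraries. Peaks at the starts of Kit and Cd34, surface markers of the CMP gate, were in the Daxx-WT CMP list and also in every LT-HSC list, so they do not set CMPs apart. The Gata1 start was open in the 2 CMP and 2 GMP lists and in no LT-HSC or KLS list. The start of the T cell gene Cd3e was in no list. The part of other cells in the peaks was not tested.

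In all 10 regions are shown to make the set concrete, each by the central 200 bases of the peak on the plus strand (RefSeq GRCm38.p6, the build of mm10). Capitals mark GATA matches (AGATAA or TGATAA) and RUNX matches (TGTGGT) on either strand. The first 5 belong to the erythroid and megakaryocyte regulators that had a CMP-only distal peak, and at each gene the region with the most GATA matches was taken, or the widest where regions tied. The Runx1 region was tied at 1 match with a second one, and those of Zfpm1 and Lmo2 hold 0.
Zfpm1, chr8:122343084-122343283: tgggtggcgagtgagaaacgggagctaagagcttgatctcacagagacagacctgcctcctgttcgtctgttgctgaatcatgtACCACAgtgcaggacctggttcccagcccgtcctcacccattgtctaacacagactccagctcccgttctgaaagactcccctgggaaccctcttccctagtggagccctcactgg
Lmo2, chr2:103965554-103965753: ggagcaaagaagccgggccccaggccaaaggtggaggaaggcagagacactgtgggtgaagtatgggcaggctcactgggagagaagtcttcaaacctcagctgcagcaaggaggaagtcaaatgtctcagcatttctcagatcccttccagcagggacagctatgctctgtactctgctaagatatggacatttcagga
Runx1, chr16:92764914-92765113: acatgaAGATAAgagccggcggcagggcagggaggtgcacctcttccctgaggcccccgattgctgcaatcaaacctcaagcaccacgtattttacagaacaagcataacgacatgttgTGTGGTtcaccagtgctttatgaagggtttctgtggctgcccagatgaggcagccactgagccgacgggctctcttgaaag
Kit, chr5:75460524-75460723: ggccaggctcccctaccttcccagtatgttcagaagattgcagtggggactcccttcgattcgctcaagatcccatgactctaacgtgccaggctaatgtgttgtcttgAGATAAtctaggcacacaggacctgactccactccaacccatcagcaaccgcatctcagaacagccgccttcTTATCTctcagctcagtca
Vwf, chr6:125541280-125541479: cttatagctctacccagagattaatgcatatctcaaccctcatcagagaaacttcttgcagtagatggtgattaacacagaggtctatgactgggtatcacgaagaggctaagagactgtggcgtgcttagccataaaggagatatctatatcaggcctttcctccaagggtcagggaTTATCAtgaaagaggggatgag

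The next 2 carried CTG 7 or 8 bases before a GATA match, called the composite of E-box and GATA below. A full E-box was not required. These 2 had the highest log2 differences among such regions in Daxx-KO LT-HSCs at 3 d.p.i. The 2 after them carried RUNX matches and had the highest log2 differences among RUNX-matching regions in Daxx-KO KLS cells. The last was listed as higher in Daxx-KO cells of both kinds and, of those, held the most GATA matches. Their names are the protein-coding genes with the nearest start, which need not be the genes they act on.
Tmem131, chr1:36835693-36835892: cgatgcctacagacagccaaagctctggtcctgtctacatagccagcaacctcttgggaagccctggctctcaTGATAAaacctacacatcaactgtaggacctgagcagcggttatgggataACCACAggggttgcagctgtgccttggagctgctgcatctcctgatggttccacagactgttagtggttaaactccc
Fig4, chr10:41209070-41209269: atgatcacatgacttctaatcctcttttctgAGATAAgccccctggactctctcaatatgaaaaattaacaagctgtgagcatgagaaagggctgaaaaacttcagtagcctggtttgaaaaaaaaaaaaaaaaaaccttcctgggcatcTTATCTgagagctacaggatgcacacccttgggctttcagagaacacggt
Kcna4, chr2:107955877-107956076: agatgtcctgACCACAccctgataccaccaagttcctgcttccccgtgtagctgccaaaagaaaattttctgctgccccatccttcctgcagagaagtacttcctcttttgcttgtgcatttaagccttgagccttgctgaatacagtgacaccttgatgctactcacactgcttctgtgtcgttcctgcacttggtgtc
Gm4846, chr1:166521144-166521343: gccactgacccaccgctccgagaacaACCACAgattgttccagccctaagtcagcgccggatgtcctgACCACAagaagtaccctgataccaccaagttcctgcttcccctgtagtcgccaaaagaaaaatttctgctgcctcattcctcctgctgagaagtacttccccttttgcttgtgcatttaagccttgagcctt
Slc8a1, chr17:82379522-82379721: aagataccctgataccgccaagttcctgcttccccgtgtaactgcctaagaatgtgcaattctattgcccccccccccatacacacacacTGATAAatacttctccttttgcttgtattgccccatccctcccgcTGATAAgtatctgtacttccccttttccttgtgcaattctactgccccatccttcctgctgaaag

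CMP-only distal peaks were narrower than the other distal peaks and lay somewhat farther from genes. Their median width was 439 bp, with 5% under 278 bp and 5% over 825 bp, against a median of 588 bp. The median distance to the nearest protein-coding start was 20756 bp against 16440 bp, and 30.7% against 35.5% lay within 10 kb of one. Introns held 2346 of them (52.1% against 50.9%), the space between genes 1943 (43.2% against 43.5%), exons 128 (2.84% against 3.34%) and UTRs 85 (1.89% against 2.29%). The set was thus placed in the genome much as the other distal peaks were.

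Both limits of the definition were close to some regions. The nearest start of any CMP-only distal peak was 1001 bp away and the farthest start of an excluded CMP-only peak 994 bp. In all 560 CMP-only peaks lay within 1 kb of a start and 41 of the regions within 100 bp of that limit. At 2 regions the peak abutted a Daxx-WT LT-HSC or GMP interval, at a gap of 0 bp, and the smallest overlap that excluded a peak was 4 bp. The median gap to the nearest such interval was 4935 bp, and 284 regions (6.31%) had one within 500 bp.

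The regions were spread over many genes and few genes held several. They were nearest to 3293 protein-coding genes, of which 2484 had 1 region. Nav2 had the most, 8, followed by Adgrl2 and Hlx with 7 each, and Dnm3, Hecw2, Pard3, Prim2, Rapgef5, Slc8a1, St6galnac3 and Zmiz1 had 6 each. Hlx encodes a homeobox factor of blood and mesoderm, and Zmiz1 a transcriptional co-activator. Of the 8 regions at Nav2, 7 were in no other list, whereas 4 of the 7 at Adgrl2 were also in the Daxx-KO CMP list.

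Erythroid and megakaryocyte genes took similar shares of the CMP-only distal peaks and of the other distal peaks. Of 65 erythroid genes with an annotation, 15 had a region, 23 regions in all, which was 0.511% of the set against 0.508% of the other distal peaks. Of 40 megakaryocyte genes, 15 had a region, 26 in all, or 0.578% against 0.484%. The 2 lists share Zfpm1, and together they held 47 regions, 1.04% against 0.939%. Most of the set therefore lay beside genes outside both lists.

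Of the regulators and receptors chosen for naming, 5 had regions. Kit, the receptor of stem cell factor, had 5, Runx1 had 3, Vwf, the von Willebrand factor gene of platelets and platelet-biased stem cells, had 2, Zfpm1, which encodes the GATA1 cofactor FOG1, had 2, and Lmo2, the bridging protein of the TAL1 and GATA complex, had 1. Gata1, Gata2, Klf1, Tal1, Gfi1b, Nfe2, Fli1, Epor, Itga2b and Pf4 had 0. The distal peaks of these genes, where there were any, were shared with Daxx-WT LT-HSCs or GMPs, as with the 5 at Tal1 and the 11 at Fli1. At the 5 genes with regions, other distal peaks were also more numerous than the CMP-only ones, with 33 at Runx1, 20 at Zfpm1, 12 at Kit, 10 at Lmo2 and 8 at Vwf.

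A further 4 genes of the lists had 3 or more regions. Bcl11a, the repressor of fetal globin genes, had 4, of which 3 were in the Daxx-KO LT-HSC list and 0 in the Daxx-KO CMP list. Meis1, a homeobox factor of stem cells and megakaryocytes, had 4, Klf3, a repressor in erythroid cells, had 3, and Thbs1, the thrombospondin of platelet granules, had 3. Genes of other fates took shares of similar size. Mast cell, basophil and eosinophil genes held 16 regions (0.355% against 0.263%), of which Kit and Lmo4 had 5 each, granulocyte and monocyte genes 12 (0.267% against 0.234%) with 3 at Irf8, stem cell genes 12 (0.267% against 0.246%) and lymphoid genes 5 (0.111% against 0.183%).

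Letters of GATA and RUNX motifs were more frequent in the regions than in the other sets of distal peaks. Matches were counted in the central 200 bp on both strands. GATA letters were in 1070 of the CMP-only distal peaks (23.8%), against 15.8% of the other distal peaks, 14.2% of the 8630 distal peaks in Daxx-WT GMPs alone and 21.2% of the 13562 in Daxx-WT LT-HSCs alone. The composite of an E-box and GATA (CTG, then 7 or 8 bases, then AGATAA or TGATAA, so that each of its matches is also a GATA match) was in 123 (2.73%), against 1.44%, 0.649% and 1.82%. RUNX letters were in 1390 (30.9%), against 24.4%, 22.8% and 20.5%. All 3 shares were the highest of the 4 sets.

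The motifs of myeloid factors were ordered differently among the sets. Letters of the Pu.1 motif (GAGGAAGT) were in 10.6% of the CMP-only distal peaks, against 8.72% of the other distal peaks, 10.3% in GMPs alone and 4.67% in LT-HSCs alone. C/EBP letters (TTGCNNAA) were in 8%, against 11.4%, 24.1% and 8.53%. The CACCC box (CCNCNCCC), which erythroid KLF factors bind, was in 20.8% against 22.7%, 19.1% and 18.8%, and the AP-1 letters (TGANTCA) in 8.24% against 8.76%, 10.6% and 9.17%. Base composition was close, with a median GC share of 48.5% against 49.5% in the other distal peaks. Within the peaks of low (under 47%), middle and high (over 52%) GC share, GATA letters were in 28.5%, 23.7% and 16% of the CMP-only distal peaks and in 22.2%, 15.8% and 9.02% of the other distal peaks, so the difference stood in each class. More of the CMP-only set was repetitive, since in 9.06% of them over 50% of the bases were masked as repeats, against 4.27%.

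**Figure D1:**
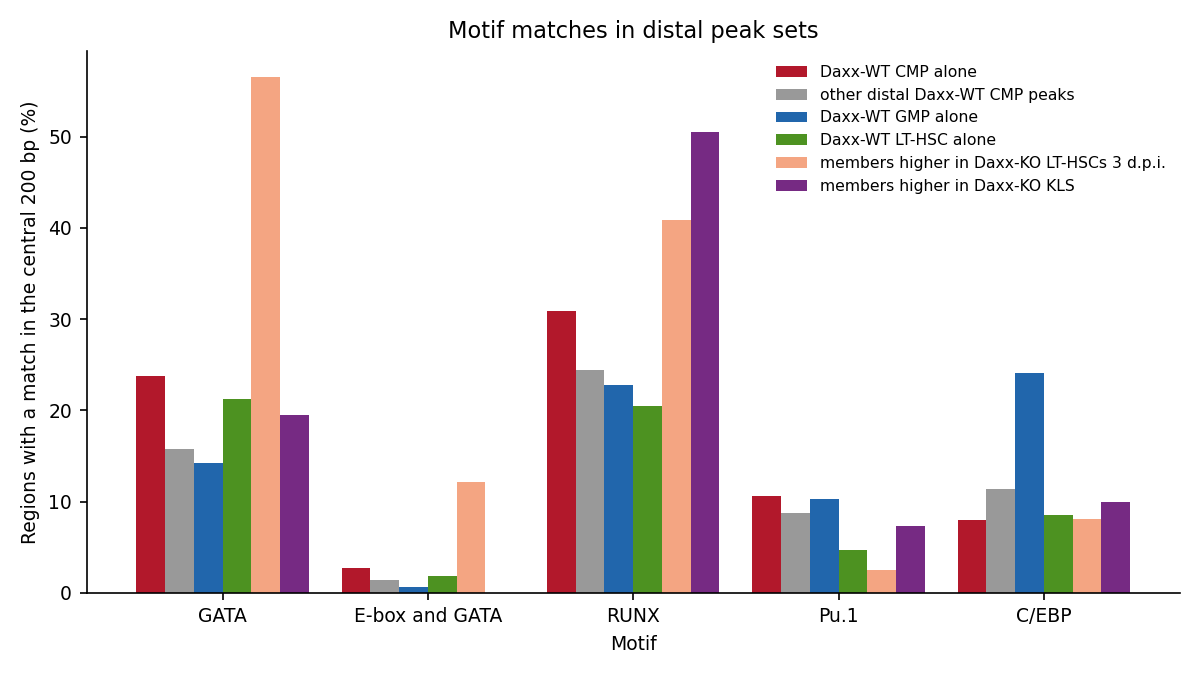
Share of regions (%) with at least 1 match of each motif in the central 200 bp, by set. Bars compare CMP-only distal peaks with 3 other sets of distal peaks and with the CMP-only distal peaks listed as higher in Daxx-KO LT-HSCs at 3 d.p.i. (286) or Daxx-KO KLS cells (190), where GATA reaches 56.6% in the former and RUNX 50.5% in the latter.

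Outside the 3 lists that defined them, CMP-only distal peaks were called less often than the other distal peaks. No other list held 2383 of them (52.9%), against 5.32% of the other distal peaks, and 1224 were in 1 further list, 592 in 2, 223 in 3, 61 in 4, 13 in 5, 5 in 6 and 1 in 7. The Daxx-KO CMP list held 1154 (25.6%), where 65.5% of all distal Daxx-WT CMP peaks were found. Daxx-KO GMPs held 424 (9.42%, against 61.2% of all distal peaks) and Daxx-KO LT-HSCs 865 (19.2%, against 68.9%). Each of the other distal peaks overlapped a second Daxx-WT list by definition, so a lower share of the CMP-only ones was partly fixed by the rule. Sets called in 1 Daxx-WT list varied. Of the distal peaks in GMPs alone 32.1% were in the Daxx-KO GMP list, and of those in LT-HSCs alone 81.5% were in the Daxx-KO LT-HSC list. The regions were also narrower than the other distal peaks, and the part of peak width and depth in these shares was not tested.

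More of the regions were called in Daxx-KO than in Daxx-WT stem cell populations at 3 d.p.i. and in KLS cells. The list of DKO KLS cells, which lack Pu.1 as well, held 43 against 49 in the Daxx-WT KLS list, but was also the shorter list. For 3 d.p.i. LT-HSCs the Daxx-WT list held 66 (1.47%) and the Daxx-KO list 406 (9.02%), where all distal peaks gave 39.2% and 49.6%. In KLS cells the Daxx-WT list held 49 (1.09%) and the Daxx-KO list 416 (9.24%), where all distal peaks gave 35.2% and 50.6%. Daxx-KO over Daxx-WT ratios were thus 6.15 and 8.49 for the CMP-only distal peaks and 1.25 and 1.41 for the other distal peaks, while the whole lists differed in length by 1.2 and 1.34 times. At 3 d.p.i. 366 regions were in the Daxx-KO list alone, 26 in the Daxx-WT list alone and 40 in both. For KLS cells these counts were 383, 16 and 33.

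Since the definition removed Daxx-WT LT-HSC peaks, a low share in the other Daxx-WT stem cell lists was partly fixed by it, and sets with the same removal serve as the fairer yardstick. Distal peaks shared by Daxx-WT CMPs and GMPs but absent from LT-HSCs gave Daxx-KO over Daxx-WT ratios of 3.63 at 3 d.p.i. and 3.88 in KLS cells, and distal peaks in GMPs alone 2.07 and 3.92. The mirror set, 2475 distal peaks in Daxx-KO CMPs and in neither Daxx-KO LT-HSCs nor GMPs, gave 7.03 and 9.79. That set was built without the Daxx-WT lists, although 65.9% of it overlapped the Daxx-WT CMP list, and its ratios were no lower than those of the CMP-only distal peaks. With 1 list in each group the ratios have no spread between libraries, and the lists came without a depth. At 3 d.p.i. and in KLS cells the Daxx-KO lists rest on 3 libraries and the Daxx-WT lists on 2. Mean reads per window were 9.49, 4.21 and 9.59 in the Daxx-KO and 9.6 and 7.93 in the Daxx-WT libraries at 3 d.p.i. In KLS cells they were 8.13, 4.54 and 5.59 against 8.36 and 7.49. The part of depth and library number in the ratios was not tested.

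The DKO KLS list held few of the regions. It had 43 of them (0.955%, against 16.5% of all distal peaks), and so 0.878 times the number in the Daxx-WT KLS list, and only 1 region was in both. The distal peaks of GMPs alone stood the other way, with 870 (10.1%) in the DKO list against 38 in the Daxx-WT list. The DKO list was the shortest, at 0.665 times the Daxx-WT KLS list, and it held 0.468 times as many of the other distal peaks. The ratio of the regions was thus above both of these. It was below those of the sets with the same removal of LT-HSC peaks. Distal peaks shared by Daxx-WT CMPs and GMPs but absent from LT-HSCs gave 2.91, and those in GMPs alone 22.9. The mirror set of Daxx-KO CMPs gave 1.45.

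**Figure D2:**
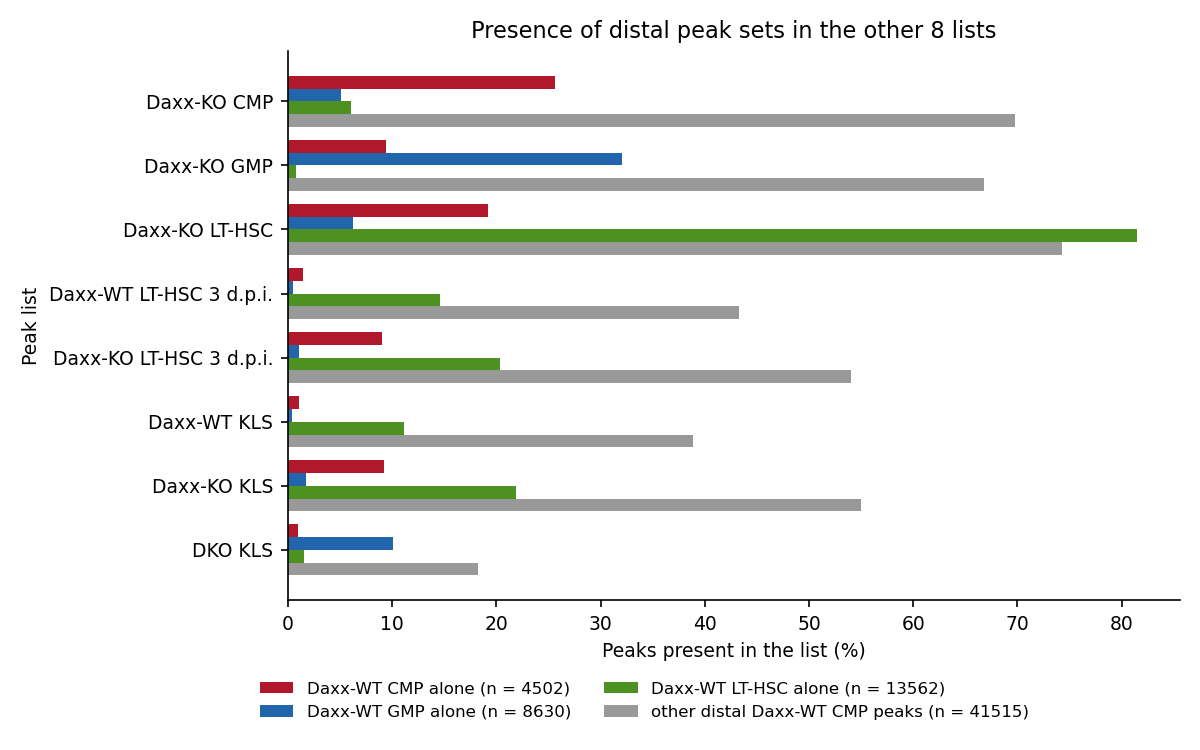
Share of each set of distal peaks (%) that overlapped an interval of the 8 lists not used to define CMP-only distal peaks, 1 list per group. CMP-only distal peaks reach 25.6% in Daxx-KO CMPs, stay at 1.47% and 1.09% in the later Daxx-WT stem cell lists and at 9.02% and 9.24% in their Daxx-KO counterparts, and drop to 0.955% in DKO KLS cells.

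In all 763 regions (16.9%) were in the Daxx-KO LT-HSC 3 d.p.i. or KLS list and 110 (2.44%) in the Daxx-WT list of either, where all distal peaks gave 61.4% and 47.2%. With the Daxx-KO LT-HSC list added, 1308 regions (29.1%) were in at least 1 of 3 Daxx-KO stem cell lists, against 73.2% of all distal peaks. All 3 held 41 regions (0.911%, against 38.4%), of which 30 (0.666%, against 3.74%) were in neither of those Daxx-WT lists. Among the regions, presence in Daxx-KO stem cells went with presence in Daxx-KO CMPs. This was not set against the same shares of all distal peaks, so it is not shown to be particular to the regions. Of the regions in the Daxx-KO KLS list 57.9% were also in the Daxx-KO CMP list, against 22.3% of the others, and the same comparison gave 44.3% against 23.8% for LT-HSCs at 3 d.p.i. and 33.4% against 23.8% for Daxx-KO LT-HSCs. Still, 776 regions were in a Daxx-KO stem cell list and not in the Daxx-KO CMP list.

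Where a list gave a fold enrichment, the called regions were weak peaks. The median enrichment at CMP-only distal peaks was 4.28 in the Daxx-KO LT-HSC list at 3 d.p.i. (5% to 95%, 2.83 to 7.19), against 6.09 at other distal peaks and 6.35 over the list. In the Daxx-KO KLS list it was 4.95, against 6.14 and 6.28, and in the DKO KLS list 3.79, against 4.29 and 4.93. The Daxx-WT medians were 4.14 at 3 d.p.i. and 4.45 in KLS cells, against 6.22 and 5.67 over the lists. When intervals under the median of their list were set aside, 0.822% of the regions remained in the Daxx-KO LT-HSC 3 d.p.i. list and 0.155% in the Daxx-WT one, and 1.62% and 0.0444% in the KLS lists.

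Of the 13 regions at the 5 named regulators 7 were in no other list, 5 were in the Daxx-KO CMP list, 3 in a Daxx-KO stem cell list and 0 in a later Daxx-WT stem cell list, where the whole set gave 52.9%, 25.6%, 29.1% and 2.44%. The printed regions of Kit, Vwf and Zfpm1 were those 3. The Kit region printed above (599 bp, between genes, 113993 bp upstream of the nearest Kit start) had 2 GATA matches, 1 of them within an E-box composite, and was in the Daxx-KO CMP, LT-HSC and LT-HSC 3 d.p.i. lists. The Vwf region (1362 bp, 4714 bp upstream of the nearest Vwf start, 1 GATA match) was in the Daxx-KO CMP, LT-HSC 3 d.p.i. and KLS lists, and the Zfpm1 region (716 bp, intron, 1 RUNX match) was in the Daxx-KO CMP, LT-HSC and LT-HSC 3 d.p.i. lists. The printed Runx1 region (624 bp, intron, 1 GATA and 1 RUNX match) was in the Daxx-KO CMP and GMP lists and in no stem cell list. The Lmo2 region (306 bp, intron) held neither motif in its centre and was in no other list.

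The 3 tables give the only values per library. The authors listed a site because its windows differed on these same libraries, so that nearly every listed site separates the groups and its direction is fixed by being listed. The counts by direction below are therefore descriptions and no independent evidence. Log2 differences are on the log2(scaled reads + 1) scale, Daxx-KO or DKO minus Daxx-WT, with limma's standard error and a Benjamini-Hochberg adjusted p over all windows the authors tested. Each listed site was taken with the region it overlapped most. In all 804 CMP-only distal peaks were taken with a site of at least 1 table in this way.

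Most regions were at no listed site of the LT-HSC 3 d.p.i. table, and those at one were mostly at a site listed as higher in Daxx-KO LT-HSCs. Of the 4502 regions, 6.4% overlapped such a site and 0.733% a lower one, where all distal Daxx-WT CMP peaks gave 3.69% and 1.47%, and distal peaks of GMPs alone gave 0.579% and 1.1%. Of the 319 sites over CMP-only distal peaks 286 were higher (89.7%), against 68.4% of the sites over other distal peaks and 29.1% of all 11927 listed sites. The median log2 difference was 1.03, against -1.05 over all listed sites. No site passed limma at an FDR of 0.05 in either direction, over the regions or over the whole table (0% and 0% of listed sites), and the smallest adjusted p was 0.301. At an unadjusted p under 0.05 limma gave 286 higher and 33 lower sites, where it gave 3084 and 8370 of all 11927 listed sites. At all 319 sites the libraries of the groups did not overlap, with the 3 Daxx-KO libraries above both Daxx-WT libraries at 286 and below at 33, where 28.8% and 70.7% of all listed sites did so.

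GATA letters went with that direction. They were in 162 of the 286 higher regions (56.6%), in 1 of the 33 lower ones (3.03%) and in 21.7% of the regions at no listed site. The E-box and GATA composite was in 35 of the 286 (12.2%), in 0 of the 33 and in 2.08% of the regions at no site. Other distal peaks at higher sites had GATA letters in 35.6% and the composite in 6.52%. RUNX letters were in 40.9% of the higher regions and 27.3% of the lower ones, and Pu.1 letters in 2.45% and 6.06%. Of the 286 higher regions 47.2% were also in the Daxx-KO CMP list, and of the 33 lower ones 45.5%.

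The site with the highest log2 difference over a region was between genes, 31046 bp upstream of the nearest start of Dab2ip, which encodes a Ras GTPase-activating protein. It held 169, 173 and 132 scaled reads in Daxx-KO LT-HSCs and 39.4 and 30 in Daxx-WT LT-HSCs, a log2 difference of 2.16 (SE 0.25, limma adjusted p = 0.301). Every Daxx-KO library was over 3 times the higher Daxx-WT library, and the region, with 1 GATA match, was in all 5 Daxx-KO lists and in no Daxx-WT list other than that of CMPs. The sites next in size were at Pcnx2 (103, 96.4 and 75 against 39.4 and 12.2) and Spata5 (64.2, 46.8 and 59.1 against 25.9 and 7.5), with log2 differences of 1.99 and 1.92. The printed regions with the composite followed the same direction, with 50.5, 59.2 and 38 against 20.3 and 8.44 at Tmem131 and 159, 111 and 131 against 62 and 38.5 at Fig4.

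Decreases were fewer and at lower levels. The site at Atp8a2, which encodes a phospholipid flippase, held 3.67, 2.86 and 8.45 scaled reads in Daxx-KO libraries against 27 and 24.4 in Daxx-WT libraries, a log2 difference of -2.27 (SE 0.38, limma adjusted p = 0.301). Those at Taf1b and Lmtk2 had log2 differences of -1.89 and -1.56. None of these 3 regions was in another list or held a GATA or RUNX match.

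Among the named regulators 4 had a region at an LT-HSC site, each with higher values in Daxx-KO cells and none past the test. At the Zfpm1 region the Daxx-KO libraries held 307, 350 and 359 scaled reads and the Daxx-WT libraries 179 and 157 (log2 difference 1.01, SE 0.22, limma adjusted p = 0.301), although only 225 bp of the site lay over the region. At the Vwf region, covered whole, they held 182, 157 and 126 against 81.1 and 74.1 (0.97, SE 0.25, limma adjusted p = 0.321). A second Kit region (103272 bp upstream, 1 RUNX match, in no other list) held 56.9, 46.8 and 42.2 against 24.8 and 24.4. Groups did not overlap at any of them. A second Runx1 region (intron, 1 GATA and 1 RUNX match) held 89, 70.6 and 72.8 against 42.8 and 47.8, a log2 difference of 0.76 (SE 0.23, limma adjusted p = 0.497).

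In Daxx-KO KLS cells too, most regions were at no listed site and the rest were mostly at higher ones. Of the regions 4.26% overlapped a higher site and 1.11% a lower one, against 3.31% and 2.29% of all distal Daxx-WT CMP peaks and 0.672% and 4.28% of distal peaks in GMPs alone. Of 240 sites over CMP-only distal peaks 190 were higher (79.2%), against 56.6% over other distal peaks and 19.1% of all 17311 listed sites. The median log2 difference was 1.01. Limma called none of the regions and 0% of listed sites in either direction, with a smallest adjusted p of 0.284. At an unadjusted p under 0.05 it gave 184 higher and 50 lower sites, where it gave 2898 and 13851 of all 17311 listed sites. Libraries did not overlap between groups at 189 higher and 50 lower sites, where 18.8% and 80.8% of all listed sites did so. With a pseudocount of 5 in place of 1 limma called 44 higher and 9 lower, where 3.11% and 22.1% of all listed sites were called.

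RUNX letters were in 96 of the 190 higher regions (50.5%), against 30% of the 50 lower ones, 30% of the regions at no listed site and 33.4% of other distal peaks at higher sites. GATA letters were in 19.5% of the higher regions and in 32% of the lower ones, and the composite of E-box and GATA in 0 and 3 of them. Among the higher regions of 3 d.p.i. LT-HSCs 56.6% had GATA letters. The tables were scaled separately and the difference between them was not tested. Of the 190 higher regions 64.2% were in the Daxx-KO CMP list and 20.5% in the Daxx-KO GMP list, against 18% and 8% of the 50 lower ones.

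The highest log2 difference in KLS cells was at the printed Kcna4 region, 664278 bp from the nearest start of this potassium channel gene. Daxx-KO libraries held 102, 185 and 102 scaled reads and Daxx-WT libraries 15.5 and 2.29, a log2 difference of 4.09 (SE 0.62, limma adjusted p = 0.284). The sites next in size were at Ntng1, which encodes a netrin-related protein (127, 171 and 146 against 31.9 and 16.1, log2 difference 2.64), and at A430005L14Rik (164, 191 and 161 against 18.2 and 43.6, log2 difference 2.56). All 3 regions were in the Daxx-KO CMP and KLS lists. The sites with the lowest log2 differences were at Rpa1, a subunit of replication protein A (12.2, 11.4 and 6.58 against 37.4 and 34.4, log2 difference -1.78), Angptl7 (-1.74) and Dnajc11 (-1.61). The 1 named regulator in this table was Runx1, where a site over 175 bp of the printed region held 17.8, 12.2 and 10.3 scaled reads in Daxx-KO libraries against 27.4 and 34.4 in Daxx-WT libraries, a log2 difference of -1.16 (SE 0.33, limma adjusted p = 0.297).

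**Figure D3:**
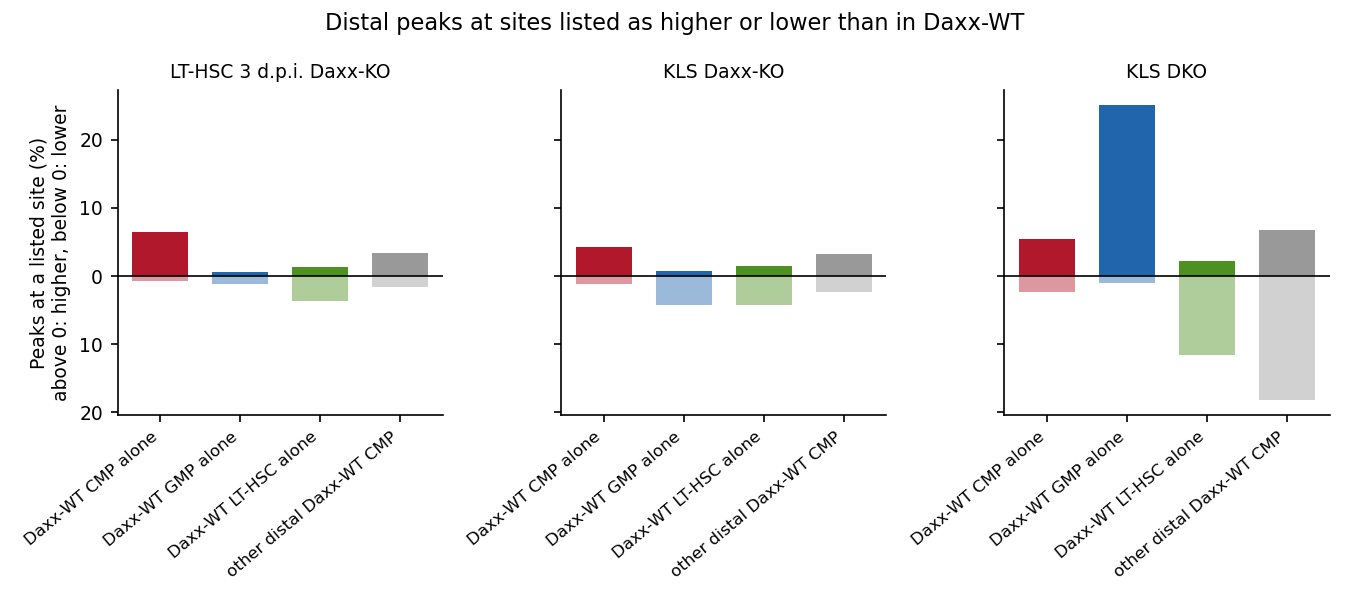
Share of each set of distal peaks (%) overlapping a site listed as higher (full colour, above 0) or lower (pale, below 0) than in Daxx-WT, for the 3 tables. CMP-only distal peaks have the largest higher share of the 4 sets in the LT-HSC table (6.4%) and the Daxx-KO KLS table (4.26%), while in DKO KLS cells distal peaks of GMPs alone reach 25.1%.

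The LT-HSC and Daxx-KO KLS tables share no library, and 28 CMP-only distal peaks were in both. They were higher in Daxx-KO in both tables at 19 (67.9%), lower in both at 0 and opposite at 9 (32.1%), where the 234 distal Daxx-WT CMP peaks at a site of both tables gave 61.5%, 10.3% and 28.2%. With most sites over the regions higher in each table, a large share higher in both is no sign that the tables agree. At the printed Slc8a1 region the Daxx-KO libraries held 90.8, 84 and 67.6 scaled reads against 30.4 and 22.5 in LT-HSCs, and 65.7, 105 and 69.6 against 11.9 and 18.3 in KLS cells. At Serpinb9, which encodes an inhibitor of granzyme B, they held 305, 356 and 209 against 89 and 113 in LT-HSCs and 93.5, 108 and 119 against 48.4 and 49.3 in KLS cells. At Olfr1499, an olfactory receptor gene, they held 52.3, 49.6 and 53.8 against 22.5 and 20.6, and 73.5, 95.3 and 88.4 against 25.5 and 24.1. In each of these 3 regions all Daxx-KO libraries lay above both Daxx-WT libraries in both populations. The region at Cd47, the signal that protects cells from phagocytosis, had log2 differences of 1.07 and 1.10, and that at Mef2c, a factor of megakaryocyte and lymphoid development, 1.23 and 1.11. The Mef2c region lay 392138 bp from the nearest Mef2c start.

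In DKO KLS cells the regions went the way of the table as a whole. Of the regions 5.51% overlapped a higher site and 2.33% a lower one, against 6.59% and 16.7% of all distal Daxx-WT CMP peaks, and 25.1% and 0.997% of distal peaks in GMPs alone. Of 353 sites over CMP-only distal peaks 248 were higher (70.3%), against 27.2% over other distal peaks, 96.2% over distal peaks of GMPs alone and 72.1% of all 50928 listed sites. Limma called 206 higher and 84 lower at an FDR of 0.05, where 67.3% and 14.9% of all listed sites were called. Libraries did not overlap between groups at 248 higher and 105 lower sites, where 72.1% and 27.8% of all listed sites did so. These calls hung on the scaling and on single libraries. Scaled to the mean reads per window instead, which moves the median log2 difference of listed sites by -0.671, limma called 8 higher and 105 lower, where 6.52% and 27.2% of all listed sites were called. With DKO replicate 1 or DKO replicate 2 left out it called 0 in both directions, as over all listed sites (0%), without Daxx-WT replicate 1 it called 119 and 48 (44.2% and 7.33% of all listed sites), and without Daxx-WT replicate 2 it called 160 and 59 (59.2% and 10.8%). In LT-HSCs and Daxx-KO KLS cells the same rescaling moved the median up by 0.331 and 0.467, a direction in which higher sites cannot turn lower. Sites over the regions with all Daxx-KO libraries below the Daxx-WT libraries then fell from 33 to 10 in LT-HSCs (40.2% of all listed sites). In KLS cells they fell from 50 to 34 (64.4%). Lower sites at an unadjusted limma p under 0.05 fell from 33 to 3 in LT-HSCs and from 50 to 13 in KLS cells. Over all listed sites they fell from 8370 to 2170 and from 13851 to 6712. Sites over the regions with all Daxx-KO libraries above the Daxx-WT libraries went from 286 to 281 in LT-HSCs and stayed at 189 in KLS cells. Over all listed sites such higher sites went from 3436 to 2880 and from 3248 to 3163.

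The sites over regions with the highest log2 differences in DKO KLS cells were at Utp23, a ribosome assembly factor (137 and 115 scaled reads against 15.1 and 28.5, log2 difference 2.54, limma adjusted p = 2.03e-09), Fat4 (2.14) and St6galnac5 (2.13). Those with the lowest were at Ppargc1a, the co-activator of mitochondrial biogenesis (8.48 and 14.1 against 39.9 and 46.1, log2 difference -1.88, limma adjusted p = 1.72e-05), Gata3 (-1.88) and Zeb2 (-1.82). The Fat4, Gata3 and Zeb2 regions were far from the starts that name them, at 163896, 777846 and 1128333 bp. RUNX letters were in 44% of the 248 higher regions and 28.6% of the 105 lower ones, and GATA letters in 25% and 16.2%.

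Kit, Vwf and Lmo2 regions were higher in DKO than in Daxx-WT KLS cells. At the printed Kit region the DKO libraries held 94.4 and 66.5 scaled reads and the Daxx-WT libraries 32.8 and 38.4 (log2 difference 1.14, SE 0.36, limma adjusted p = 0.019), and at a Kit intron region 188 and 110 against 39 and 60.3 (1.54, SE 0.36, limma adjusted p = 0.000523). The Vwf region held 39.2 and 49.6 against 21.3 and 19.7 (1.07, SE 0.36, limma adjusted p = 0.0325). The site called at Lmo2 lay over only 6 bp of the region (136 and 118 against 54.1 and 69.1, limma adjusted p = 0.0421). The Zfpm1 region, higher in Daxx-KO LT-HSCs, held 102 and 112 in DKO against 189 and 208 in Daxx-WT KLS cells, a log2 difference of -0.89 (SE 0.36, limma adjusted p = 0.132). With either DKO library left out, none of these sites passed.

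**Figure D4:**
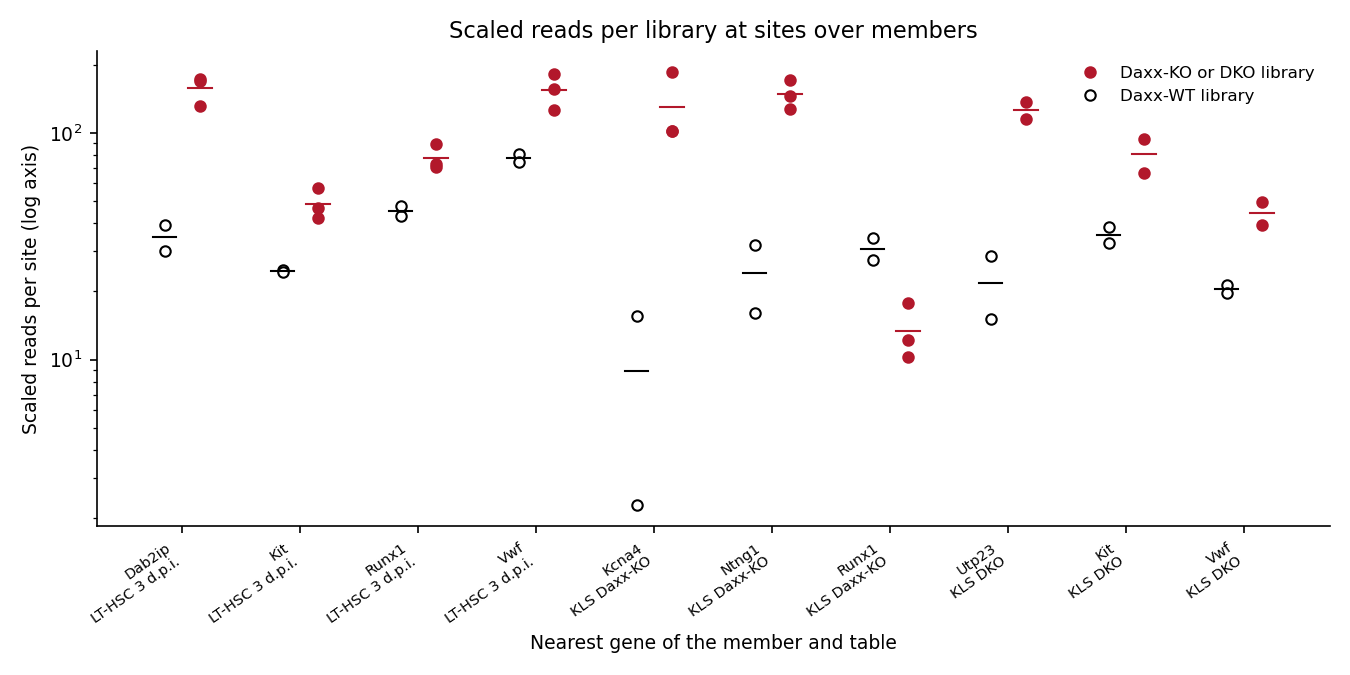
Scaled reads per library (log axis) at 10 listed sites over CMP-only distal peaks, named by nearest gene and table. The Vwf peak is the same in LT-HSCs and in DKO KLS cells. Open circles are Daxx-WT libraries, filled circles Daxx-KO or DKO libraries and short lines group means; the groups do not overlap at any of the 10, and the Runx1 region in KLS cells, with 17.8, 12.2 and 10.3 against 27.4 and 34.4, is the one with lower values in Daxx-KO cells.

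The Daxx-KO and DKO KLS tables share the 2 Daxx-WT libraries, so their values can only be set side by side. Of 43 regions in both, 30 were higher than Daxx-WT in both, 4 lower in both, 7 higher in Daxx-KO and lower in DKO cells, and 2 the reverse. All 3 tables held 10 of the regions. The Ntng1 region had log2 differences of 1.15 in LT-HSCs, 2.64 in Daxx-KO KLS cells and 1.70 in DKO KLS cells, and the Serpinb9 region 1.48, 1.11 and 1.02. The region at Fars2, a mitochondrial tRNA synthetase gene, had 0.85, 0.79 and -1.24.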

How the data were processed

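ATAC-seq was performed on sorted mouse LT-HSCs, CMPs, GMPs and KLS cells in 24 libraries of 11 groups, which the study describes as independent biological samples. Per the labels, reads were handled with CASAVA 1.8.4, cutadapt 1.13, STAR 2.5.3 and bedtools and placed on mm10. The authors deposited 1 peak list per group, of which 5 give the fold enrichment (ratio) of each interval and 6 give positions alone. Where those 5 repeat an interval, 1 copy with its largest fold enrichment was kept. The authors deposited 3 diffReps 1.55.6 tables with scaled reads per library at listed sites. These are normalized values of another kind than whole counts, so no count model was used. Columns with the authors' own fold changes, p-values and direction calls were not used. The tables were scaled separately by the authors and each was tested alone. Depth of the peak lists is not given in the sources used here.

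Start sites, exons and introns were taken from GENCODE M21 (GRCm38), and each region was assigned to the protein-coding gene with the nearest start. All list intervals lay within the chromosome lengths of that build. Overlap meant 1 bp or more. Repeats are the lower-case bases of the RefSeq genome. Sites were tested with limma 3.58.1 (R 4.3.3) on log2(value + 1), two-sided, without a replicate block, and p-values were adjusted by Benjamini-Hochberg over the 413247, 407030 and 446463 windows that the table headers report as tested (LT-HSC 3 d.p.i., KLS Daxx-KO and KLS DKO). The fit was tested on simulated data. An exact permutation test of 3 against 2 or 2 against 2 libraries cannot reach 0.05, so none was run. Python 3.11.15 was used for the rest.

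The regions, gene lists and motifs were chosen with earlier results of these data known. Named genes were 16 regulators and receptors with their number of regions, other erythroid or megakaryocyte genes with 3 or more regions, the 10 genes with the most regions (ties kept), and in each table the 3 sites with the largest log2 difference in each direction whose libraries do not overlap, plus sites at the 16 genes. Regions in both Daxx-KO tables that are described by name, and the last 5 sequences printed, were chosen after their values were seen. Alternatives were a start distance of 5 kb, a gap of 500 bp, intervals over the median fold enrichment of their list, genes within 100 kb, a motif window of 400 bp, sites covering 50% of a region, pseudocounts of 0.5 and 5, a mean of at least 10, scaling to mean reads per window, a replicate block, and each library left out. Results for some genes are not reported here.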

Additional observations from a re-analysis of the deposited data

Results flagged for a closer look

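At 9 CMP-only distal peaks every Daxx-KO library lay on the opposite side of the Daxx-WT libraries in 3 d.p.i. LT-HSCs and KLS cells. They were 32.1% of the 28 regions at a site of both tables. Opposite directions were about as frequent, at 28.2%, among the 234 distal Daxx-WT CMP peaks at a site of both. The 2 tables were scaled separately, so the difference between the populations was not tested, and none of these sites passed limma in either table. The 3 regions higher in Daxx-KO LT-HSCs and lower in Daxx-KO KLS cells were nearest to Dnajc11 (log2 difference 1.21 in LT-HSCs and -1.61 in KLS cells), Gm45837 (0.79 and -0.88) and Schip1 (0.69 and -0.97). Each of these 3 held a GATA match and was in the Daxx-KO LT-HSC 3 d.p.i. list alone among the other lists. At Dnajc11 the scaled reads were 112, 106 and 94 against 63.1 and 30.9 in LT-HSCs, and 8.91, 13.1 and 9.41 against 28.3 and 40.1 in KLS cells.

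The reverse was seen at Mycn (-1.07 in LT-HSCs and 0.78 in KLS cells), Foxf1 (-0.96 and 1.09), Ldlrad4 (-0.89 and 1.05), Spata5 (-0.75 and 1.10), Itsn1 (-0.71 and 0.75) and Sik1 (-0.63 and 0.70). This Spata5 region is another than the Spata5 region with a log2 difference of 1.92 in LT-HSCs given earlier. None of these 6 held a GATA match, and all 6 were in the Daxx-KO CMP and KLS lists. At Mycn, which encodes a MYC family factor of stem and progenitor cells, the scaled reads were 17.4, 16.2 and 21.1 against 37.2 and 41.3 in LT-HSCs, and 96.9, 106 and 74.3 against 53.8 and 51.6 in KLS cells. The Mycn region lay 118662 bp from the nearest Mycn start.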

How the results depend on the processing

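Presence in any of the 8 lists stayed near 47.1% when 50% of a region had to be covered (46.6%) or regions with a Daxx-WT LT-HSC or GMP interval within 500 bp were left out (46.7%). With only intervals above the median fold enrichment of their list, it was 42.8%, and presence was 0.155% and 0.822% in the Daxx-WT and Daxx-KO LT-HSC lists at 3 d.p.i., 0.0444% and 1.62% in the Daxx-WT and Daxx-KO KLS lists and 0.0888% in the DKO list, by construction lower. With genes taken within 100 kb, 1.73% of the regions against 1.83% of the other distal peaks were at erythroid or megakaryocyte genes, so that the order of the 2 sets turned. In the central 400 bp matches were more frequent by construction, with GATA in 40.2%, E-box and GATA in 4.33%, RUNX in 45%, Pu.1 in 14%, C/EBP in 15.5%, CACCC in 35.9% and AP-1 in 14% of the regions. Sites that covered 50% of a region in the Daxx-KO KLS table were higher in 86.3%. A pseudocount of 5 gave 44 higher and 9 lower calls in Daxx-KO KLS cells, where a pseudocount of 1 gave 0 and 0 (3.11% and 22.1% of all listed sites against 0% and 0%), and the cause was not tested. In DKO KLS cells scaling to mean reads per window gave 8 higher calls (6.52% of all listed sites), and leaving out 1 library gave 0 to 160 higher and 0 to 59 lower (0% to 59.2% and 0% to 10.8%). In the other tables limma called 0 regions with every library and with each left out. The share of higher sites is fixed by the listing, so leaving out a library says nothing of it.

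Replicate numbers did not pair the KLS samples, since deviations of same-numbered libraries correlated at 0.00844 and 0.0517 in the Daxx-KO table and at -0.00308 in the DKO table. With a replicate block 19 higher and 2 lower sites over the regions were called in the Daxx-KO table (1.29% and 12% of all listed sites), and 212 higher and 92 lower in the DKO table (67.9% and 15.8%). The LT-HSC 3 d.p.i. columns carry no replicate number of the labels, and no blocked fit was made there. Library depth limits the tables at 4.21 to 16.0 reads per window on average, and presence in a list rests on 1 list per group.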

Other observations

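A set of 44 CMP-only distal peaks on 19 chromosomes shared runs of 20 bases or more, directly or through another of the set, and was chosen after values had been seen, so it has no test. A median of 91.7% of their bases was masked as repeats. Of the 44, 25 were in the Daxx-KO CMP list (56.8%, against 25.6% of all CMP-only distal peaks) and 23 in the Daxx-KO GMP list (52.3% against 9.42%), whereas 4 were in the Daxx-KO LT-HSC list and 0 in the Daxx-WT KLS or Daxx-WT LT-HSC 3 d.p.i. lists. GATA letters were in 20 of them (45.5%) and RUNX letters in 25 (56.8%).

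Of the 44 regions 6 were at a higher site in Daxx-KO KLS cells and 0 at a lower one, with log2 differences of 4.09 (Kcna4), 2.41 and 1.65 (the 2 Gm4846 regions), 2.33 (Slc8a1), 1.73 (4930452B06Rik) and 1.64 (Dop1b), each with a limma adjusted p of 0.284. The printed Kcna4 and Gm4846 sequences share a run of 31 bases, Kcna4 and Slc8a1 of 23 and Gm4846 and Slc8a1 of 18. Reads of near-identical copies may be placed at any of them, so the level of a single copy is uncertain.

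In all 420 CMP-only distal peaks (9.33%) shared a 20-base run with another of the set, in 44 groups. The set of 44 regions described above was not the largest group. The largest held 244 regions, of which 17.6% were in the Daxx-KO CMP list and 11.1% in the Daxx-KO GMP list. Of these 244, 5 were at a higher site in Daxx-KO KLS cells and 0 at a lower one.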
